A study of Homo sapiens with 12 samples.

Results

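Interferon-stimulated genes, the sensors of double-stranded RNA and the transcription factors that act between them were compared between HCQ-evolved and control cells of the lines labelled OVCAR3 and CCL218. These genes were the rows of the count table whose symbol was among 49 listed symbols. Of the 28278 genes in the table, 48 were such rows, since DDX58 and RIGI are 2 symbols of 1 gene, the RNA sensor RIG-I, which the table holds as DDX58. Except for IFI27, all had 3 or more counts in at least 11 of 12 libraries. IFI27 was listed at 0 counts in every library, which allows a level of up to 0.0501 to 0.0942 CPM (counts scaled to library size), the level that 3 counts would give at these depths. Symbols here and below are those of the table.

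Viral or misplaced double-stranded RNA is bound in the cytoplasm by RIG-I (DDX58) and MDA5 (IFIH1), which signal through the adaptor MAVS to the interferon regulatory factors IRF3 and IRF7. These factors switch on interferon genes. Secreted type I interferon binds the receptor chains IFNAR1 and IFNAR2, the kinases JAK1 and TYK2 are activated, and a complex that holds STAT2 and IRF9 binds a promoter element called ISRE. The genes so induced encode antiviral effectors, and also the sensors themselves. In cancer cells a part of these genes can be expressed without infection.

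Hydroxychloroquine (HCQ) is an antimalarial drug that impairs lysosomes and autophagy. The study gives OVCAR3 as a line of high-grade serous ovarian cancer, and describes CCL218 as colorectal. HCQ-evolved cells had passed through 15 pulse-chases, each of 48 h in HCQ followed by growth in fresh medium, and then grew for 7 days without drug before collection. Control cells were passaged without HCQ on a paired plate. The labels give passage 19 for control and passage 15 for HCQ-evolved cells, so passage and HCQ history cannot be told apart. Wells of a plate were combined by position into a left pool (L), a middle pool (M) and a right pool (R), which gave 3 pools in each of 4 groups and 12 polyA RNA libraries. All pools of a group came from 1 plate, so p-values measure the spread between parts of that plate. Changes in RNA per cell and in the share of cells that express a gene cannot be told apart in such pools.

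Libraries held 31147822 to 59965861 counts, and no pair within a group agreed within sampling noise. The label OVCAR3 was not borne out by all ovarian and Mullerian markers. SOX17, EMX2 and ESR1 were at 0 to 0.0516 CPM in every library of both labels. PAX8 was at 6.4 to 14.9 CPM in all of them, WT1 at 0.103 to 2.35 CPM and FOLR1 at 1.6 to 6.09 CPM. MUC16 was at 13 to 50.1 CPM under the label OVCAR3 and at 3.65 to 14.3 CPM under CCL218, and MSLN at 2.21 to 18.3 CPM and 46.4 to 128 CPM. Of the intestinal genes, KRT20 was at 0 to 0.0669 CPM and CDX1 at 0.0335 to 0.536 CPM throughout. VIL1 and LGR5 were at 78.5 to 290 CPM and 13.9 to 31.7 CPM in libraries labelled OVCAR3, and at 160 to 202 CPM and 15 to 43.7 CPM in those labelled CCL218. CDX2, CDH17, GPA33 and CEACAM5 were at 0.803 to 13.7, 1.71 to 4.51, 1.72 to 7.21 and 3.7 to 7.93 CPM under OVCAR3, and at 21.2 to 71.3, 2.43 to 57.4, 3.81 to 36.5 and 13 to 67.4 CPM under CCL218. Of the leukocyte genes, PTPRC and CD3E were at 0 to 0.18 CPM and ITGAM at 0.109 to 1.14 CPM throughout, while LYZ was at 1290 to 2760 CPM and CD14 at 4.53 to 23.6 CPM. The line names below are the labels. Pools of a group also differed with transcript length. Spearman's rho between length and a pool's level relative to the other pools of its group, across 12384 genes and without a test, ran from -0.631 to 0.658. It was highest for control OVCAR3 M and was 0.64 for HCQ-evolved OVCAR3 R and -0.562 for control CCL218 L. The part of length in the results was not tested beyond the fits given with them.

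In OVCAR3, a part of the interferon-stimulated genes was higher in HCQ-evolved than in control pools. Of 44 genes tested, 9 rose (IFI44L, MX2, XAF1, HERC6, IFIH1, MX1, OAS2, IFI6 and USP18) and 0 fell at an adjusted p under 0.05. That was 20.5% of them, against 1.86% of the 12204 genes tested in this line (0.647% higher and 1.21% lower). The median log2 fold change was 0.69 over these genes and 0.016 over all genes tested. At an unadjusted p under 0.05, 22 were higher and 0 lower (50%, against 16.2% of all genes), and DESeq2's Wald test called 19 higher and 0 lower (9.05% of all genes). Every HCQ-evolved pool lay above every control pool for 21 of the 48 genes, and below for 1 (IRF1). The same held for 13% and 12.7% of all genes tested. Of the 21, EPSTI1 and TRIM22 were not themselves tested. IFI27, SAMD9L, EPSTI1 and TRIM22 were too low to be tested, and IFI44L and XAF1 reached the minimum of 1 CPM in HCQ-evolved pools alone, so that these 2 could enter the test only by being higher there. With a minimum of 1 CPM on the mean of all pools, 8 of 45 passed (1.43% of all genes), IFI44L and XAF1 among them. These 2 again met the minimum only through HCQ-evolved pools. Their means were 0.397 and 0.454 CPM in control and 7.96 and 2.37 CPM in HCQ-evolved pools. Of 8 intestinal marker genes 6 were tested in OVCAR3 and 0 passed. The 8 summed to 250 to 337 CPM in control and 123 to 175 CPM in HCQ-evolved pools. Most of this sum was VIL1, with means of 241 and 110 CPM (log2 fold change -1.12). CDX2 and LGR5 were at -0.79 and -0.26, and GPA33, CDH17 and CEACAM5 at 0.76, 0.073 and 0.054, all with overlapping pools. The 8 ovarian and Mullerian genes summed to 44 to 69.9 CPM and 42 to 65.1 CPM, and 0 of 4 tested passed. The part of these markers in the result was not tested.

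**Figure D1:**
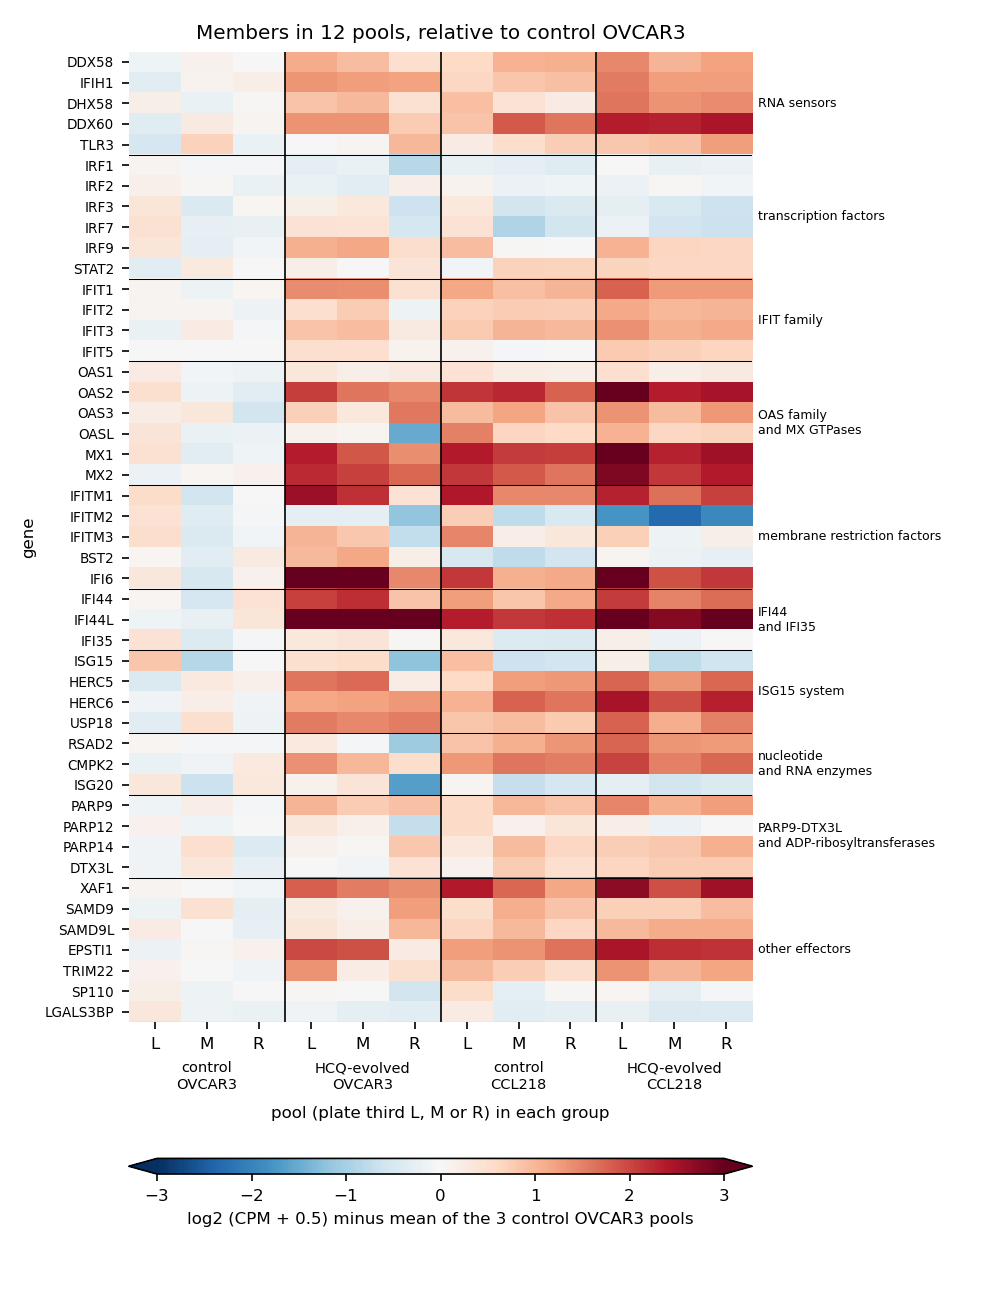
Level of 47 genes (rows, grouped by role) in 12 pools (columns, L, M and R of each group) as log2 of CPM plus 0.5, minus the mean of the 3 control OVCAR3 pools, with colours saturating beyond 3 in either direction. Most rows of the OAS, MX, IFI44 and RNA sensor groups are red in HCQ-evolved OVCAR3 and in both CCL218 groups, while the rows of IRF1, IRF2 and IRF3 are pale, and pool R of HCQ-evolved OVCAR3 is paler than pools L and M in many rows.

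The largest change was that of IFI44L, an interferon-stimulated gene of chromosome 1 next to its paralog IFI44. IFI44L was at 0.309, 0.251 and 0.629 CPM in control OVCAR3 pools (L, M and R) and at 9.15, 7.87 and 6.85 CPM in HCQ-evolved pools. Each HCQ-evolved pool lay above the highest control pool, and the fitted change was 19.5-fold (log2 fold change 4.29, standard error 0.39, adjusted p = 0.00706). As given above, IFI44L could enter this test only by being higher in HCQ-evolved pools. IFI44 was at 5.72, 3.74 and 7.64 CPM in control pools and at 24.5, 27.5 and 10.4 CPM in HCQ-evolved pools. Its groups did not overlap, HCQ-evolved R lay nearest to control, and the change did not pass (1.87, standard error 0.41, adjusted p = 0.0688). IFI35, another interferon-induced gene, had overlapping pools (0.23).

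The promoters of IFI44L and 5 other genes that passed in a line are printed to show where the ISRE core lies. Only genes whose window held a match were printed, so these windows do not show how common the core is among genes that passed. Windows run from 250 bases before to 50 bases after a transcript start in RefSeq, 5′ to 3′ on the strand of the gene, and 37 of the 48 genes had one. Both strands were searched for the ISRE core (GAAA, any 2 bases, GAAA) and for the gamma-activated site (GAS) TTCNNNGAA, and matches may overlap. An ISRE match was found for 26 of the 37 genes (70.3%) and for 4.38% of 27305 genes with a window. Of the genes that rose in OVCAR3, 6 had a window and 4 of these a match (66.7%), a share near that of the set. A GAS match was found for 13 (35.1%) and for 9.38% of all genes. Capitals mark ISRE and GAS matches, and of these 6 windows that of EPSTI1 alone held a GAS match.
IFI44L (GRCh38.p14, chr1:78620198-78620497, plus strand): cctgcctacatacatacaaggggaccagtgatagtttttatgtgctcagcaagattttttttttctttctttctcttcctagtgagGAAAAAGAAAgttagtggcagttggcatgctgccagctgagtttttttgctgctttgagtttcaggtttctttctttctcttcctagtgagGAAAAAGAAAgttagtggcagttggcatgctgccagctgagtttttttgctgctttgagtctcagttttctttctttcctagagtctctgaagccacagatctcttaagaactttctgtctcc
IFIH1 (GRCh38.p14, chr2:162318635-162318934, minus strand): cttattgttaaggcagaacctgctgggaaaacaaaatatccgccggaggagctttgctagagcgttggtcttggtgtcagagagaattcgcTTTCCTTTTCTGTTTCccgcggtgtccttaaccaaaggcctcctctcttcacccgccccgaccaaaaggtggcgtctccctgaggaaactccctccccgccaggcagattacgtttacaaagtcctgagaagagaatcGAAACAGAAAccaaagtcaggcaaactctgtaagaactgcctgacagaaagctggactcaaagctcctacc
MX1 (GRCh38.p14, chr21:41420308-41420607, plus strand): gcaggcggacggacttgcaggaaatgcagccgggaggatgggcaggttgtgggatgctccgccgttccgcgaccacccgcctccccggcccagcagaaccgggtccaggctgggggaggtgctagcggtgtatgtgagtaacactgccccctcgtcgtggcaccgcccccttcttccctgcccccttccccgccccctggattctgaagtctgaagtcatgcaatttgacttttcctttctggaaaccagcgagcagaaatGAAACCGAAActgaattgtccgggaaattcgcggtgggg
IFI6 (GRCh38.p14, chr1:27672143-27672442, minus strand): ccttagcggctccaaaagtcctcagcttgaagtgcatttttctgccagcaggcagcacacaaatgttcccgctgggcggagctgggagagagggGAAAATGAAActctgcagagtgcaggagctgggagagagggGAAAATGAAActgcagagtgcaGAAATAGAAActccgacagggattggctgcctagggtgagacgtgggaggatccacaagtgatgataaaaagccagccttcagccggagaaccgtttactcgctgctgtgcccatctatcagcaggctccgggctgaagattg
IFIT5 (GRCh38.p14, chr10:89414318-89414617, plus strand): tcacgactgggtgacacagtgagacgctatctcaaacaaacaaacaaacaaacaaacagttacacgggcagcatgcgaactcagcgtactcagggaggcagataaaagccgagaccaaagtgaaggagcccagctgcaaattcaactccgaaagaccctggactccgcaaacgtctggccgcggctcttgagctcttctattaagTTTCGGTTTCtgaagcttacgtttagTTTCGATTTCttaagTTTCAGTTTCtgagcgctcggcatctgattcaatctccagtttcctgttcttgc
EPSTI1 (GRCh38.p14, chr13:42992192-42992491, minus strand): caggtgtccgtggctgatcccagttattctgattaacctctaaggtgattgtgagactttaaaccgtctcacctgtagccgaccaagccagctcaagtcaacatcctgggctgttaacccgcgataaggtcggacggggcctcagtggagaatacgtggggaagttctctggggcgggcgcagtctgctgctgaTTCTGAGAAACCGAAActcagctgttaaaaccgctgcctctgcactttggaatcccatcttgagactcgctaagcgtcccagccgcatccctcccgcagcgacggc
IFI44L held 2 ISRE matches, IFIH1, IFI6 and IFIT5 held 3 each, EPSTI1 held 1, and MX1 held 1, just after the start. XAF1 and HERC6, which also rose in OVCAR3, had windows with neither motif. No window was used for DHX58, IFIT2, IFITM2, IRF2, IRF3, IRF7, MX2, OAS2, OASL, TRIM22 and USP18.

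Among the MX and OAS genes of OVCAR3, 3 of 6 rose. MX1 and MX2 encode dynamin-like GTPases that block viruses and lie side by side on chromosome 21. MX2 was at 1.13, 1.41 and 1.52 CPM in control pools and at 8.14, 7.1 and 5.59 CPM in HCQ-evolved pools, a 5.16-fold rise (log2 fold change 2.37, standard error 0.26, adjusted p = 0.0105). MX1 was at 4.64, 2.45 and 2.94 CPM in control pools and at 18.6, 13.2 and 9.32 CPM in HCQ-evolved pools, a rise of 4.15-fold (2.05, standard error 0.34, adjusted p = 0.0349). For both, the lowest HCQ-evolved pool was R and still above all control pools. The OAS enzymes make 2-5A, a messenger of the antiviral response. OAS2 went from 4.54, 2.76 and 2.4 CPM to 14.7, 10.5 and 9.37 CPM and rose 3.61-fold (1.85, standard error 0.31, adjusted p = 0.035). Its neighbours OAS1 and OAS3 and the related OASL had overlapping pools and log2 fold changes of 0.27, 0.95 and -0.28.

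Of 5 RNA sensors, all had positive changes and 1 rose. IFIH1, the MDA5 sensor of long double-stranded RNA, was at 8.97, 12.2 and 13.1 CPM in control pools and at 28.9, 27.5 and 26.7 CPM in HCQ-evolved pools. The HCQ-evolved pools lay close together, and the rise was 2.44-fold (log2 fold change 1.29, standard error 0.21, adjusted p = 0.0315). DDX58 (RIG-I) was at 12.4, 14.9 and 13.6 CPM against 29.9, 26.4 and 19.5 CPM, DHX58 (LGP2, a regulator of both) at 7.25, 5.5 and 6.53 CPM against 12, 13 and 8.99 CPM. DDX60, a helicase linked to RIG-I signalling, was at 8.64, 13.7 and 12 CPM against 29.4, 29.6 and 19.3 CPM. Pools of these 3 did not overlap and the values were 0.9, 0.83 and 1.2, but adjusted p was 0.0863, 0.107 and 0.0689. TLR3, the endosomal sensor of double-stranded RNA, had overlapping pools (0.46).

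None of the 6 transcription factors passed in OVCAR3. Their log2 fold changes ran from -0.41 (IRF1) to 0.96 (IRF9), and the median was 0.08. IRF9 was at 32.4, 21 and 23.7 CPM in control pools and at 53.9, 57.1 and 36.9 CPM in HCQ-evolved pools, which did not overlap (standard error 0.24, adjusted p = 0.0992). IRF3 and IRF7, the factors that sensors activate, had overlapping pools, as had IRF2 and STAT2. IRF3 was the most abundant of the 6 per length of its canonical transcript, at 80.5 CPM per kb in control and 79.5 CPM per kb in HCQ-evolved OVCAR3 (means).

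In the ISG15 system, HERC6 and USP18 rose. ISG15 is a ubiquitin-like protein, HERC5 its ligase, HERC6 a related protein and USP18 the protease that removes it and restrains the interferon receptor. HERC6 was at 3.76, 4.77 and 3.77 CPM in control and at 9.71, 9.99 and 10.7 CPM in HCQ-evolved OVCAR3 pools, up 2.5-fold (log2 fold change 1.32, standard error 0.21, adjusted p = 0.03). USP18 was at 1.29, 2.61 and 1.52 CPM and at 6.1, 5.54 and 6.04 CPM, up 3.31-fold (1.73, standard error 0.32, adjusted p = 0.0471). In both, all 3 HCQ-evolved pools were similar and above control. ISG15 itself was at 176, 54.1 and 99.8 CPM and at 137, 145 and 42 CPM, spread widely within each group with a log2 fold change near 0 (-0.0071, standard error 0.53). HERC5 had overlapping pools, since HCQ-evolved R was at 0.937 CPM against 3.25 and 3.51 CPM in L and M.

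IFI6, which encodes a small membrane protein induced by interferon, had the largest fitted change after IFI44L. IFI6 was at 16.2, 8.92 and 13.8 CPM in control and at 116, 108 and 34.8 CPM in HCQ-evolved OVCAR3 pools, 6.72-fold up (log2 fold change 2.75, standard error 0.47, adjusted p = 0.0364). Pool R was the lowest of the HCQ-evolved pools and still above every control pool. IFITM1, IFITM2 and IFITM3, membrane proteins that block viral entry, and the tether of budding virions, BST2, did not pass (2.27, -0.55, 0.52 and 0.83). Their pools overlapped. The IFITM genes are close paralogs in 1 cluster, so their counts are uncertain. XAF1, an antagonist of the apoptosis inhibitor XIAP, was at 0.516, 0.44 and 0.407 CPM in control and at 2.83, 2.28 and 2.01 CPM in HCQ-evolved pools (5.28-fold, log2 fold change 2.4, standard error 0.29, adjusted p = 0.0146). Like IFI44L, XAF1 could enter this test only by being higher there.

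Other groups did not pass in OVCAR3. The IFIT genes, whose proteins bind viral RNA ends, were at 0.42 to 1.19 on the log2 scale. IFIT1 was at 14.1, 11.9 and 13.9 CPM in control and at 36.3, 35.4 and 18.3 CPM in HCQ-evolved pools, without overlap (1.19, standard error 0.28, adjusted p = 0.084). IFIT3 was at 14.1, 19.5 and 15.6 CPM against 29.8, 31.4 and 19.8 CPM (0.73, adjusted p = 0.181). PARP9, partner of the ubiquitin ligase DTX3L, was at 20.2, 25.6 and 21.4 CPM against 45.4, 38.4 and 41.5 CPM (0.91, standard error 0.19, adjusted p = 0.0583), while DTX3L, PARP12 and PARP14 had overlapping pools. CMPK2, a mitochondrial nucleotide kinase, was at 1.03, 1.13 and 1.63 CPM against 4.05, 2.97 and 2.01 CPM (1.26, adjusted p = 0.122). Its neighbour RSAD2 (viperin) and the nuclease ISG20 had overlapping pools, and SAMD9, SP110 and LGALS3BP had them in both lines. CMPK2 and RSAD2, and likewise PARP9 and DTX3L, overlap on opposite strands, and whether counting used strand is not given in the sources used here.

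The count in OVCAR3 changed with single pools left out, as did the share of all genes called. Without HCQ-evolved R, 19 genes rose (all genes 4.6%). Without control L, control M, control R, HCQ-evolved L or HCQ-evolved M, edgeR called 0, 1 (IFI44L), 1 (IFI44L), 1 (MX2) and 0, when 0.025%, 0.158%, 0.0332%, 0.404% and 0.206% of all genes were called. At an unadjusted p under 0.05, 18 passed without control L and 17 without HCQ-evolved M (11.2% and 12.7% of all genes). Without any 1 of the HCQ-evolved pools, IFI44L and XAF1 could not be tested. The median log2 fold change stayed between 0.59 and 0.74. With a trend in transcript length and GC content removed from each library, 10 passed (3.64% of all genes). With all 12 libraries in 1 fit, 20 passed (9.24% of all genes).

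**Figure D2:**
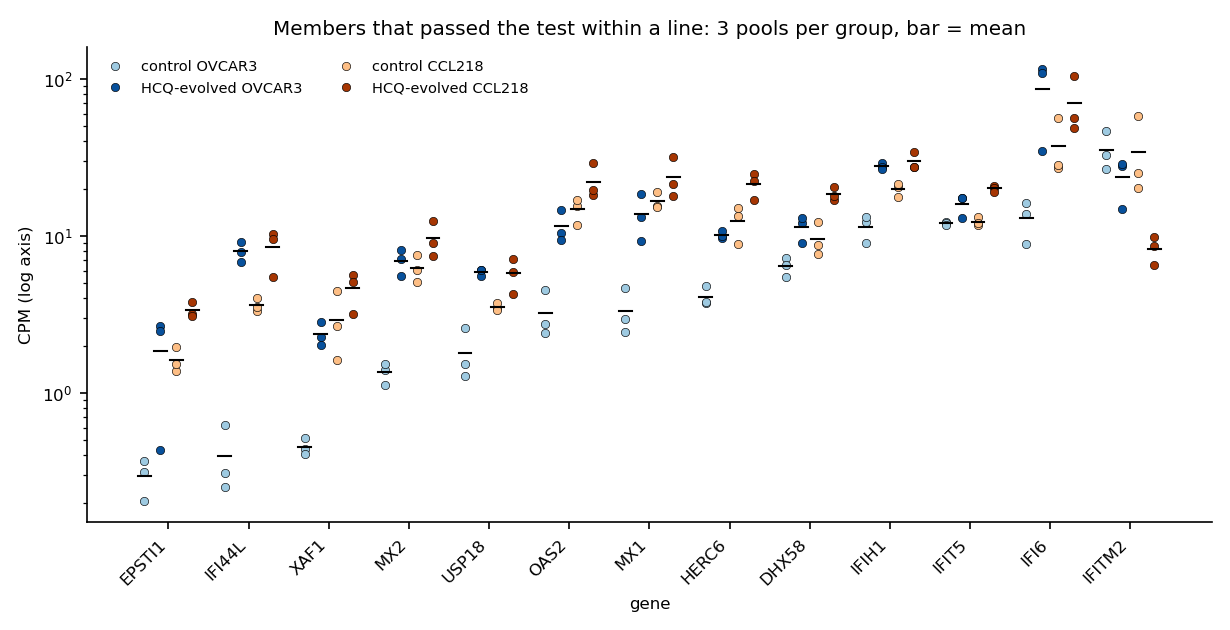
CPM (log axis) of the 13 genes that passed within a line, ordered by level in control OVCAR3, with 1 point per pool (3 per group) and a bar at the group mean. Control OVCAR3 points lie lowest for most genes, from 0.251 to 0.629 CPM for IFI44L against 6.85 to 9.15 CPM after HCQ evolution, and IFITM2 alone is lowest in HCQ-evolved CCL218.

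In CCL218 fewer of these genes passed, with 4 higher in HCQ-evolved pools (IFI44L, EPSTI1, DHX58 and IFIT5) and IFITM2 lower. These 5 were 11.1% of 45 tested, against 6.46% of 12241 genes in this line (3.82% higher and 2.64% lower). The median log2 fold change was 0.32, and -0.017 over all genes. At an unadjusted p under 0.05, 16 passed (35.6%, against 25.2% of all genes). HCQ-evolved and control pools did not overlap for 19 genes, 18 of them higher and 1 lower after evolution. Of all genes tested, 18.6% and 17.3% were higher or lower in this way. TRIM22, among the 18, was not itself tested. Deviations of CCL218 pools with the same plate position correlated. Their rho with transcript length also had the same sign at each position in control and HCQ-evolved pools. It was -0.562 and -0.631 in L, 0.643 and 0.301 in M, and 0.311 and 0.513 in R. The parts of position and length in this pairing were not told apart. With a block for position 11 passed (24.4%, against 14.2% of all genes). The 10 higher genes were then IFI44, EPSTI1, DHX58, HERC6, DDX60, IFIH1, IFI6, IFI44L, IFIT5 and BST2.

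Intestinal marker genes also moved with HCQ evolution in CCL218. Of 8 such genes 6 were tested, 4 rose and 1 fell, and their summed level was 254 to 291 CPM in control and 377 to 442 CPM in HCQ-evolved pools. The cadherin gene CDH17 rose 13.6-fold (adjusted p = 0.0012), the surface antigen gene GPA33 7.24-fold (adjusted p = 0.000608), CEACAM5 4.28-fold (adjusted p = 0.00103) and the transcription factor gene CDX2 2.91-fold (adjusted p = 0.00275). The stem cell marker LGR5 fell (log2 fold change -1.18, adjusted p = 0.021), and KRT20 was near 0 in both groups. The 8 ovarian and Mullerian genes summed to 62.9 to 124 CPM in control and 104 to 145 CPM in HCQ-evolved pools, and 0 of 4 tested passed. Most of this sum was MSLN, with means of 63.6 and 107 CPM (log2 fold change 0.75). PAX8 was at 0.2, and MUC16 and FOLR1 were at -0.86 and -0.38. Pools of all 4 overlapped. The part of these markers in the result was not tested.

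IFI44L was at 4.03, 3.33 and 3.5 CPM in control and at 10.3, 5.48 and 9.54 CPM in HCQ-evolved CCL218 pools. These did not overlap and the rise was 2.33-fold (log2 fold change 1.22, standard error 0.26, adjusted p = 0.0394). DHX58 went from 12.3, 8.75 and 7.62 CPM to 20.4, 17 and 17.9 CPM (1.93-fold, 0.94, standard error 0.2, adjusted p = 0.0398). IFIT5, which binds cellular and viral RNA, went from 13.2, 11.7 and 12.1 CPM to 20.9, 20.1 and 19.1 CPM, with little spread in either group (1.62-fold, 0.69, standard error 0.12, adjusted p = 0.0225). EPSTI1, an interferon-stimulated gene of epithelial and stromal cells, went from 1.38, 1.52 and 1.96 CPM to 3.82, 3.17 and 3.09 CPM (2.06-fold, 1.04, standard error 0.22, adjusted p = 0.0372). Below the level of the test in OVCAR3, EPSTI1 was there at 0.206, 0.314 and 0.37 CPM in control and at 2.65, 2.47 and 0.435 CPM in HCQ-evolved pools. In each of these genes every HCQ-evolved pool was above every control pool.

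IFITM2 was the only gene of the set that fell. It was at 57.7, 20.3 and 25 CPM in control and at 9.77, 6.49 and 8.66 CPM in HCQ-evolved CCL218 pools. Control L was far above the others, and all HCQ-evolved pools lay below control (log2 fold change -2.05, standard error 0.41, adjusted p = 0.0329). Without control L the value was -1.46. Its paralogs IFITM1 and IFITM3, from the same cluster, had overlapping pools and values of 0.2 and -0.5.

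Several genes that rose in OVCAR3 were not past the threshold in CCL218. With the block, HERC6, IFIH1 and IFI6 passed. HERC6 was at 8.9, 15.1 and 13.4 CPM in control and at 24.7, 17 and 22.4 CPM in HCQ-evolved pools (0.78, adjusted p = 0.0991, and 0.0488 with the block). IFIH1 was at 17.6, 20.6 and 21.5 CPM and at 34.4, 27.5 and 27.6 CPM (0.58, adjusted p = 0.0654, and 0.0473 with the block). IFI6 was at 56.4, 27 and 28.1 CPM and at 104, 48.6 and 56.4 CPM, with the L pool highest in both groups (0.9, adjusted p = 0.202). MX1 was at 19, 15.5 and 15.2 CPM and at 31.8, 18 and 21.3 CPM (0.51, adjusted p = 0.218), and MX2 was at 7.5, 6.09 and 5.1 CPM and at 12.4, 7.47 and 9.04 CPM (0.62, adjusted p = 0.16). Pools of IFI6, MX1 and MX2 overlapped, those of HERC6 and IFIH1 did not. OAS2, USP18 and XAF1 had log2 fold changes of 0.58, 0.7 and 0.67. None of the 6 transcription factors passed, at -0.28 to 0.41.

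In CCL218 the count and the share of all genes called changed with single pools left out too. Without control L, 18 passed, when 25.2% of all genes did. Without control M, control R, HCQ-evolved L, HCQ-evolved M or HCQ-evolved R, edgeR called 1 (IFITM2), 0, 0, 1 (IFI44L) and 0, when 3.65%, 1.2%, 1.21%, 0.841% and 1.18% of all genes were called. At an unadjusted p under 0.05, 12, 10 and 13 passed in the fits without control R, HCQ-evolved L and HCQ-evolved R (21.3%, 17.4% and 16.4% of all genes). The median stayed between 0.24 and 0.43.

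**Figure D3:**
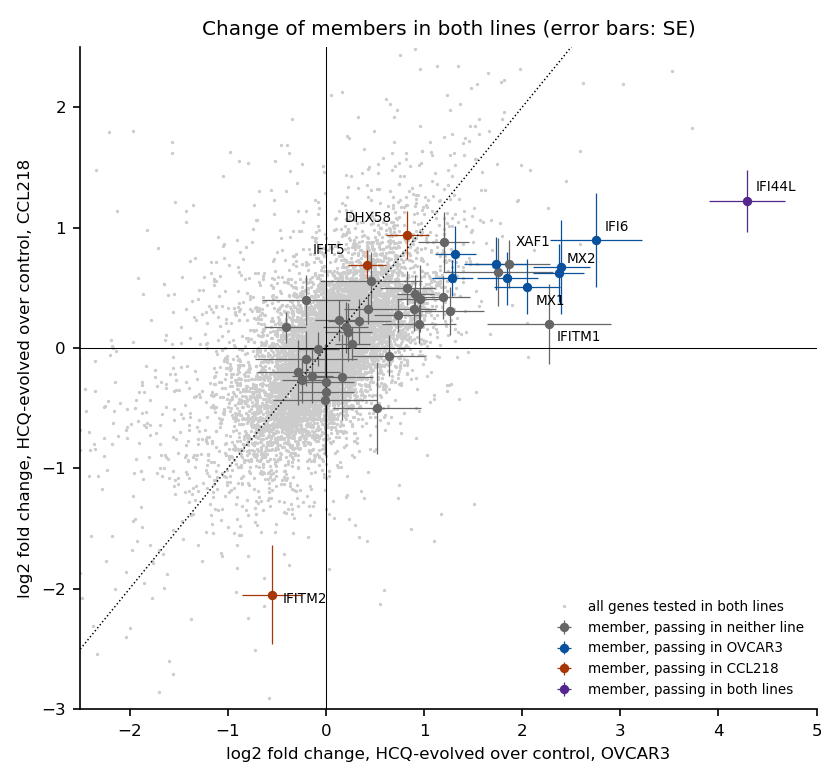
Log2 fold change of HCQ-evolved over control pools in OVCAR3 (x axis) and CCL218 (y axis) for 44 genes tested in both lines, with standard errors, over all 11944 genes tested in both lines (grey, some beyond the axes), and a dotted line where both are equal. Points of the set lie mostly right of 0 and below the dotted line, with IFI44L at 4.29 and 1.22, and IFITM2 lies low at -2.05 in CCL218.

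Changes in both lines were compared next, which used different control pools. Of the 44 genes tested in both, 30 were above 0 in both, and 38 had the same sign (86.4%, against 73.1% of 11944 genes). IFI44L was the 1 gene that passed in both lines. The change was larger in OVCAR3 for 35 of 44 genes, and for 57% of all genes. Tested as an interaction over 12613 genes, the change differed for 2 of 46 genes (4.35%, against 0.872% of all genes), IFI44L and MX2. IFI44L rose less in CCL218, by a difference of -3.04 in log2 fold change (standard error 0.45, adjusted p = 0.0104), and MX2 by -1.73 (standard error 0.34, adjusted p = 0.0439). At an unadjusted p under 0.05, 12 were lower and 1 higher in CCL218 (28.3%, against 9.11% of all genes), and the median difference was -0.44 (-0.03 over all genes). With a block for position 0 passed in edgeR (0.277% of all genes; 11 genes and 7.18% of all at an unadjusted p under 0.05), and DESeq2's Wald test gave 4 (3.67% of all genes). IFI44L passed with any 1 of the 12 pools left out, and MX2 in 2 of these 12 fits.

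Control pools under the labels OVCAR3 and CCL218 also differed for these genes. Control CCL218 pools were higher than control OVCAR3 pools for 14 of 46 genes (EPSTI1, PARP9, HERC6, CMPK2, OAS2, XAF1, IFIT1, MX1, DDX60, DDX58, IFIH1, IFIT3, MX2 and IFI44L) and lower for 0. That was 30.4%, against 3.42% of 12613 genes (1.35% higher and 2.07% lower). Over all genes, this share was below the 6.46% called between HCQ-evolved and control pools of CCL218, fitted alone. Whether the labels stand for different lines was not tested. Pools did not overlap and were higher in control CCL218 for 28 of the 48 genes and lower for 2 (8.66% and 9.13% of all genes tested). SAMD9L, among the 28, was not itself tested. The median log2 difference, CCL218 minus OVCAR3, was 0.81, and 0.0062 over all genes. At an unadjusted p under 0.05, 27 were higher and 1 lower (BST2), or 60.9% against 14.5% of all genes. DESeq2's Wald test called 23 higher and 0 lower (7.33% of all genes), and the control libraries fitted alone gave 10 (2.05%). Largest was the difference for IFI44L, from the control levels given above (8.73-fold, log2 3.13, standard error 0.35, adjusted p = 0.000834), then XAF1 (6.38-fold, 2.67, standard error 0.39, adjusted p = 0.00332). For XAF1 control CCL218 pools were at 4.45, 2.65 and 1.62 CPM. MX1, MX2 and OAS2 were 4.94-fold, 4.58-fold and 4.56-fold higher in control CCL218. EPSTI1 and CMPK2 were 5.37-fold and 3.43-fold higher (adjusted p = 0.0428 and 0.00688), HERC6 3.04-fold and DDX60 2.86-fold. DDX58, IFIH1, IFIT1, IFIT3 and PARP9 were 1.74-fold to 2.08-fold higher.

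These values share the control OVCAR3 pools with the change in OVCAR3, so both move with those pools. Counts were 8 to 22 with single pools left out, with 22 without HCQ-evolved OVCAR3 R (6.15% of all genes) and 8 each without control OVCAR3 L, control OVCAR3 R, control CCL218 M or control CCL218 R (1.89%, 1.58%, 1.44% and 1.56%). HCQ-evolved OVCAR3 was also set beside control CCL218. Pools of these groups overlapped for 41 of 47 genes (87.2%, against 70.4% of all genes), HCQ-evolved OVCAR3 was above for IFIH1, IFI44L, USP18 and BST2, and below for OASL and RSAD2. The median over 47 genes of the log2 level, relative to the mean of control OVCAR3, was -0.061 to 0.092 in control OVCAR3 pools, 0.44 (R) to 0.85 (L) in HCQ-evolved OVCAR3, 0.73 to 0.84 in control CCL218 and 1 to 1.15 in HCQ-evolved CCL218. Over all other genes tested this median was -0.018 to 0.016 in all 12 pools.

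Levels of these genes spanned a wide range. Per kb of canonical transcript, the galectin-binding protein gene LGALS3BP had 301 to 390 CPM per kb (group means), ISG15 123 to 173 and BST2 76.2 to 207 CPM per kb. IFI44L had 0.068 CPM per kb in control OVCAR3 and 1.36, 0.621 and 1.45 CPM per kb in HCQ-evolved OVCAR3, control CCL218 and HCQ-evolved CCL218. LGALS3BP and ISG15 did not pass in any comparison. Many of the genes are neighbours, since 24 of the 48 lie in 9 loci with gaps of at most 500 kb. Members of a locus did not always go together. At chr11:303655-615983 (hg38) the OVCAR3 log2 fold changes of IFITM1, IFITM2, IFITM3 and IRF7 ran from -0.55 to 2.27, and at chr12:112905856-113011723 those of OAS1, OAS3 and OAS2 from 0.27 to 1.85. At chr21:41361999-41470071, MX2 and MX1 were at 2.37 and 2.05.

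Genes of the pathway outside the set were read from the same fits. Of 87 such genes 55 were tested in OVCAR3 and 2 rose, APOL1 and UBE2L6 (3.64%, against 1.86% of all genes). In CCL218 8 of 56 passed (14.3%, against 6.46%), with 7 higher, among them UBE2L6, GBP3, PLSCR1, IRF5, APOL6 and APOL1, and CXCL11 lower. In the comparison of control lines 3 of 58 passed (5.17%, against 3.42%), all higher in CCL218 (UBE2L6, TNFSF10 and GBP1). UBE2L6, the conjugating enzyme for ISG15, was at 0.928, 0.942 and 0.74 CPM in control and at 5.9, 4.17 and 2.26 CPM in HCQ-evolved OVCAR3, and at 2.61, 2.96 and 2.65 CPM and 7.39, 5.72 and 5.28 CPM in CCL218. It rose 4.78-fold and 2.23-fold (adjusted p = 0.0382 and 0.0178), and pools did not overlap in either line. In OVCAR3 UBE2L6 reached 1 CPM in HCQ-evolved pools alone, so there it could enter the test only by being higher. APOL1, an interferon-inducible apolipoprotein, was at 107, 82.6 and 87.3 CPM in control and at 200, 233 and 295 CPM in HCQ-evolved OVCAR3, and at 90, 74.5 and 67.7 CPM and 256, 217 and 235 CPM in CCL218. It rose 2.66-fold and 3.04-fold (adjusted p = 0.0255 and 0.00275).

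Interferon ligands were scarce. Of 21 ligand genes, 9 had 0 counts in every pool and 17 had 3 or more counts in fewer than 4 pools. IFNB1, a type I interferon that many cell types make, was at 0 CPM in all control pools of both lines, at 0.105, 0.0386 and 0.0669 CPM in HCQ-evolved OVCAR3 and at 0.041, 0.0364 and 0 CPM in HCQ-evolved CCL218. The highest of these rests on 6 counts, near the 3-count floor. IFNL1, a type III interferon, was at 0.413, 0.188 and 0.074 CPM in control and at 0.768, 1.08 and 0.234 CPM in HCQ-evolved OVCAR3, with overlap, and was not tested. IFNE, an epithelial type I interferon, was the 1 ligand tested, at 4.87, 1.32 and 1.92 CPM in control and at 1.05, 0.656 and 0.736 CPM in HCQ-evolved OVCAR3, and at 7.6, 1.65 and 1.26 CPM and 0.369, 0.437 and 0.618 CPM in CCL218. Its HCQ-evolved pools were all below control in both lines, with log2 fold changes of -1.7 (adjusted p = 0.142) and -2.86 (adjusted p = 0.068, and 0.0229 with the block for position, where it passed). In CCL218 control L was far above the other control pools, and IFNE reached 1 CPM in control pools alone, so that it could enter the test only by being lower after evolution. TREX1 and CCL5 were listed at 0 counts in every pool.

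No gene for an interferon receptor or a JAK kinase passed in either line without the block for position. With it the kinase gene JAK2 passed in CCL218, where its HCQ-evolved pools lay above control (0.67, adjusted p = 0.11, and 0.0297 with the block). The receptor chain IFNAR1 was at 35.6 to 45.8 CPM in all 12 pools (0.18 in OVCAR3 and 0.23 in CCL218). IFNAR2 was at 16.4, 14.7 and 13.3 CPM in control and at 11.1, 11.3 and 8.57 CPM in HCQ-evolved OVCAR3 (-0.5, adjusted p = 0.262). Every HCQ-evolved pool there lay below every control pool, and IFNAR2 changed by 0.14 in CCL218. JAK1 (-0.14 and 0.25) and the sensor adaptor MAVS (-0.095 and -0.11) had overlapping pools in both lines. Of 12 sensing adaptors and kinases tested, 0 passed in either line without the block. With it RNF135, a ubiquitin ligase of RIG-I, passed higher in CCL218 (0.62, adjusted p = 0.0853, and 0.0417 with the block). The kinase gene IKBKE then passed lower (-0.57, adjusted p = 0.0636, and 0.0479 with the block), and 14 of 56 pathway genes in all (25%, against 14.2% of all genes).

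SOCS3, an inhibitor of JAK kinases, changed differently in the lines. It was at 4.18, 3.71 and 3.24 CPM in control and at 1.43, 1.85 and 1.57 CPM in HCQ-evolved OVCAR3, and at 3, 3.22 and 3.41 CPM and 5.46, 5.72 and 3.68 CPM in CCL218. HCQ-evolved pools were all below control in OVCAR3 (-1.17, adjusted p = 0.0598) and all above in CCL218 (0.62, adjusted p = 0.133). The difference of 1.82 passed (standard error 0.3, adjusted p = 0.0183). It passed in 7 of the 12 fits with 1 pool left out and in 4 of 7 other settings, and not with the block (adjusted p = 0.137) or with the length and GC trend removed (adjusted p = 0.0894). Among targets in CCL218, IRF5 rose 1.98-fold (adjusted p = 0.0108), the guanylate-binding GTPase gene GBP3 1.78-fold (adjusted p = 0.0103), APOL6 2.38-fold (adjusted p = 0.00779) and the scramblase gene PLSCR1 1.5-fold (adjusted p = 0.0388). The chemokine gene CXCL11 fell from 5.06, 4.81 and 5.46 CPM to 2.59, 1.79 and 2.86 CPM (-1.09, adjusted p = 0.0334). TNFSF10, which encodes TRAIL, was 1.83-fold higher in control CCL218 than in control OVCAR3 (adjusted p = 0.00938), and GBP1 2.74-fold (adjusted p = 0.034).

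**Figure D4:**
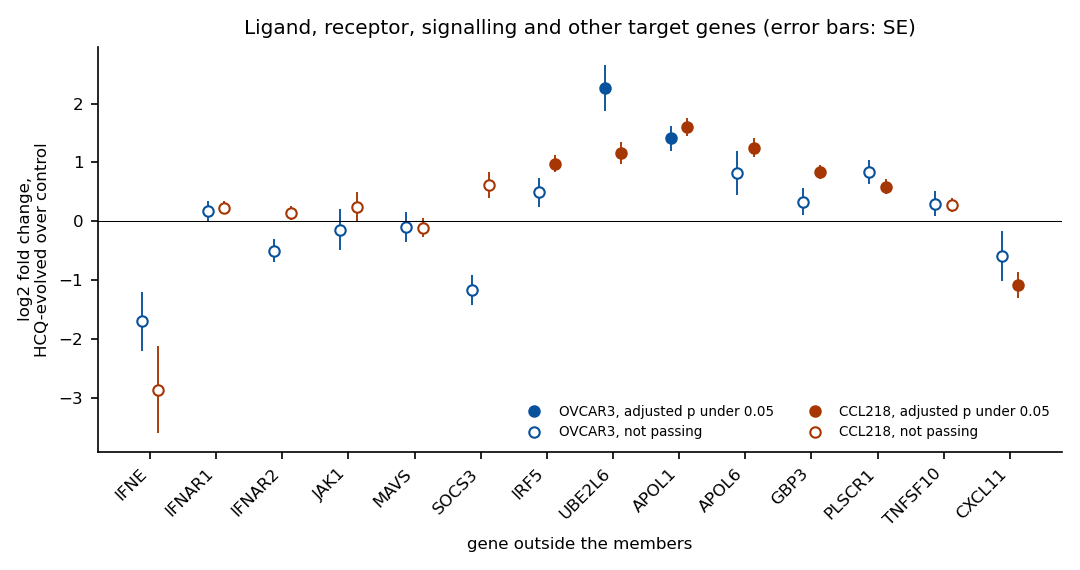
Log2 fold change with standard error of 14 pathway genes outside the set (x axis) in OVCAR3 and CCL218, where filled points passed and open points did not. UBE2L6 (2.26 and 1.16) and APOL1 (1.41 and 1.6) are filled in both lines. IFNAR1, JAK1 and MAVS lie near 0, IFNAR2 lies at -0.5 in OVCAR3 and 0.14 in CCL218, and SOCS3 lies on opposite sides of 0.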

How the data were processed

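PolyA RNA of 12 pools was sequenced. The authors' processing notes name STAR, featureCounts and hg38; versions and the strand setting are not given in the sources used here. The authors deposited 1 table of raw read counts per gene symbol, and 78.9% of entries of 1 to 4 were even. Whether both ends of a fragment were counted is not given in the sources used here; if so, low counts, the floor of 3 counts and the 6 counts of IFNB1 stand for fewer fragments than counts. Total counts were 31147822 to 59965861, so 3 counts, the floor used for a gene at 0, equal 0.0501 to 0.0942 CPM. Intervals and floors cover counting error only. Columns were matched to samples by the labels, and no column was left without a sample.

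The counts were tested with edgeR 4.0.16 (R 4.3.3) by its quasi-likelihood test with robust dispersion and TMM scaling, after a filter of 1 CPM in 3 libraries. Each line was fitted alone, and the difference between lines and that between control lines came from a fit of all 12 libraries. P-values were adjusted over all genes tested by Benjamini-Hochberg at 0.05. The standard error is the log2 fold change over the root of F. Levels are CPM under 1 TMM scaling of all 12 libraries. DESeq2 1.42.0, other filters and scalings, a block for plate position, removal of a trend in length and GC content (natural splines, 5 degrees of freedom) and leaving out each pool were alternatives. The procedure was tested on simulated counts. Loci and lengths came from GENCODE 44, which matched 26208 symbols (92.7%), and promoters from RefSeq.

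Deviations from the group means of pools with the same position correlated at 0.565 (L), 0.295 (M) and 0.231 (R) in CCL218. Position was taken to pair them from these correlations, not from the labels, and its part was not told apart from that of transcript length. Blocked values are given there for some of the genes whose call changed. Values per pool were given for genes called in any comparison, for the 5 genes of smallest p in each line, and for pathway genes called or fixed by role. The genes and lists were chosen with earlier results of these data known. Results for a few pathway and marker genes are not reported here.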

Additional observations from a re-analysis of the deposited data

Results flagged for a closer look

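The response to HCQ evolution differed between the lines for 3 genes by a test of the difference itself (log2 fold change in CCL218 minus that in OVCAR3, edgeR quasi-likelihood test over 12613 genes). The difference was -3.04 for IFI44L (adjusted p = 0.0104), -1.73 for MX2 (adjusted p = 0.0439) and 1.82 for SOCS3 (adjusted p = 0.0183), when 0.872% of all genes passed. With a block for position none of the 3 passed (0.277% of all genes did). With 1 pool left out, IFI44L passed in 12 of 12 fits, MX2 in 2 and SOCS3 in 7. HCQ-evolved pools lay above control for IFI44L in both lines, while SOCS3 was below control in all HCQ-evolved OVCAR3 pools and above it in all HCQ-evolved CCL218 pools. Causes were not tested.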

How the results depend on the processing

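Scaling by relative log expression (RLE) in edgeR and a filter on mean CPM kept every count of calls within 1.5 times. Without a filter 15 interferon-stimulated genes and 4 pathway genes were called in OVCAR3 (2.56% of all genes). DESeq2's Wald test called 19 and 9 in OVCAR3 (9.05% of all genes), 12 and 18 in CCL218 (17.7%), 4 and 2 for the difference between lines (3.67%), and 23 and 6 between control lines (7.33%). A fit of all 12 libraries called 20 and 6 in OVCAR3 (9.24%), and control libraries alone called 1 pathway gene between lines (2.05%). Removal of the length and GC trend called 4 pathway genes in OVCAR3 (3.64%), 15 in CCL218 (11.5%) and 0 for the difference (1.48%). The replicate block called 5 and 0 in OVCAR3 (0.664%), 11 and 14 in CCL218 (14.2%), 0 and 0 for the difference (0.277%), and 7 and 2 between control lines (1.72%). The block with the trend removed called 1 and 0, 10 and 17, 1 and 0, and 7 and 2 (0.361%, 15.9%, 0.412% and 1.95% of all genes). In OVCAR3 positions did not pair the pools (correlations 0.443, -0.715 and -0.52). With 1 pool left out, counts were 0 to 19 and 0 to 4 in OVCAR3, 0 to 18 and 1 to 25 in CCL218, 1 to 3 and 0 to 1 for the difference, and 8 to 22 and 1 to 7 between control lines. The share of all genes ran from 0.025% to 4.6%, 0.841% to 25.2%, 0.302% to 1.69% and 1.44% to 6.3% in these fits, and the 18 and 25 genes of CCL218 without control L stood against 25.2%. Medians of the interferon-stimulated genes kept their sign in these fits, at 0.59 to 0.74, 0.24 to 0.43, -0.58 to -0.36 and 0.70 to 0.88. With 1 pool left out, JAK1 ran from -0.49 to 0.19 in OVCAR3, turning sign without control M (0.19), HCQ-evolved L (0.0042) or M (0.027). MAVS turned with the trend removed (0.12, also with the block). With 1 pool left out it ran from -0.41 to 0.043 in OVCAR3, above 0 without control M (0.017), HCQ-evolved L (0.041) or M (0.043), and from -0.21 to 0.0072 in CCL218, above 0 without control M. Of the fits of single genes, 926 kept direction and side of the threshold, 215 no longer passed and 75 newly passed. The cause was not tested. Pools from 1 plate per group limit all p-values to the spread within that plate.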
